A study of Mus musculus with 4 samples.

Results

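The collagen genes of the mouse were followed on 4 microarrays, as every gene whose symbol on the array has the form Col, a number, a and a number. They comprised 43 genes, read by 68 of the 39429 probes that are not controls, out of 19896 genes with a symbol. The arrays held liver and white adipose tissue (WAT) of 4-week-old C57BL/6N mice, wild type or labelled Pnpla7-/-. Pnpla7 encodes a lysophospholipase of the endoplasmic reticulum. Each of the 4 groups was 1 array hybridised with RNA pooled from 5 animals, so the spread between animals is unknown and neither a test nor a p-value is given. The sex of the animals and the fat depot are not stated in the labels, and the extraction text names livers for all 4 samples. The animals of a pool share 1 array, and all 4 arrays lay on 1 slide. The Pnpla7 probe stood at 3.18 in wild-type and 3.0 in labelled-knockout liver, and at -0.44 and -1.43 in WAT. The position of this probe relative to the deleted part is not known here, so it does not check the labels, and "labelled knockout" is used throughout.

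Collagens are proteins of the extracellular matrix in which 3 chains wind into a triple helix, and glycine recurs along the helix at a fixed short spacing. Fibrillar collagens (types I, II, III, V, XI, XXIV and XXVII) form or nucleate the fibres that bear load. Type IV forms the sheet of basement membranes, and type VI forms beaded filaments around cells, including fat cells. The fibril-associated collagens sit on the surface of fibres, and the multiplexins XV and XVIII lie in or beside basement membranes. In liver, stellate cells and portal fibroblasts are known as the main makers of fibrillar collagen. In fat, adipocyte progenitors and fibroblasts make most of it, and adipocytes themselves wear a coat of types IV and VI.

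Each level is log2 of the array's processed signal minus log2 of that array's 75th percentile, so 0 marks a bright spot, and the lowest level well above background lay between -6.31 and -5.77 on the 4 arrays. A log2 ratio is the level in the labelled knockout minus that in wild type, and 1 stands for a 2-fold difference. A level serves only to compare arrays for the same probe. Where several probes of a gene were measured, the SD between their ratios, pooled over genes, was 0.20 (liver) and 0.23 (WAT), and the scanner's error model gave a median error of 0.21 for a ratio. The Col4a1 probe, printed in 10 spots, gave a liver ratio with an SD over spots of 0.03 and a WAT ratio with an SD of 0.05. These errors cover the array and not the animals.

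The repeat that makes the triple helix could be read in the probes themselves. These 4 are shown because they carry the coding repeat of the helix, in which a codon for glycine (GG and any base) returns every 9 bases. Capitals mark the glycine codons of the run, and coordinates are those of mm9 given by the array's maker. A run of at least 4 such codons was found in 4 of the 68 collagen probes (5.88%) and in 35 of the 39361 other probes (0.0889%).
Col14a1 chr15:55347733-55347792: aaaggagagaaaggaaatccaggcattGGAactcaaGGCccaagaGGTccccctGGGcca
Col15a1 chr4:47283786-47283845: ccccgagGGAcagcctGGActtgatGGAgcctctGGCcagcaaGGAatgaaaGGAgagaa
Col16a1 chr4:129756457-129756516: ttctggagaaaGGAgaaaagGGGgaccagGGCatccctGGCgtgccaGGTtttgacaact
Col25a1 chr3:130270497-130270556: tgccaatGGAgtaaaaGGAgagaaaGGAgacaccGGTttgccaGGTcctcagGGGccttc
The Col14a1 probe was well above background on all 4 arrays and the Col15a1 probe on 3. The Col16a1 probe was well above background in wild-type WAT only, and the Col25a1 probe on no array.

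Of the 68 probes, 36 were well above background in wild-type liver, 36 in labelled-knockout liver, 48 in wild-type WAT and 45 in labelled-knockout WAT. All 4 arrays showed 32 of them and no array showed 19. No probe of 7 genes was well above background on any array: Col2a1, Col9a3, Col10a1, Col11a1, Col6a4, Col19a1 and Col24a1. The first 4 are known from cartilage. Of 10 cartilage and bone markers, 3 to 5 were well above background on each array: Acan, Sox9 and Bglap on all 4, and Comp and Hapln1 on some, while Matn1, Matn3, Ibsp, Sp7 and Runx2 were so on none. Both arrays of a tissue measured 26 genes in liver and 33 in WAT. A further 5 were well above background on 1 liver array alone, Col4a3 and Col15a1 in wild type and Col6a5, Col11a2 and Col22a1 in the labelled knockout.

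**Figure D1:**
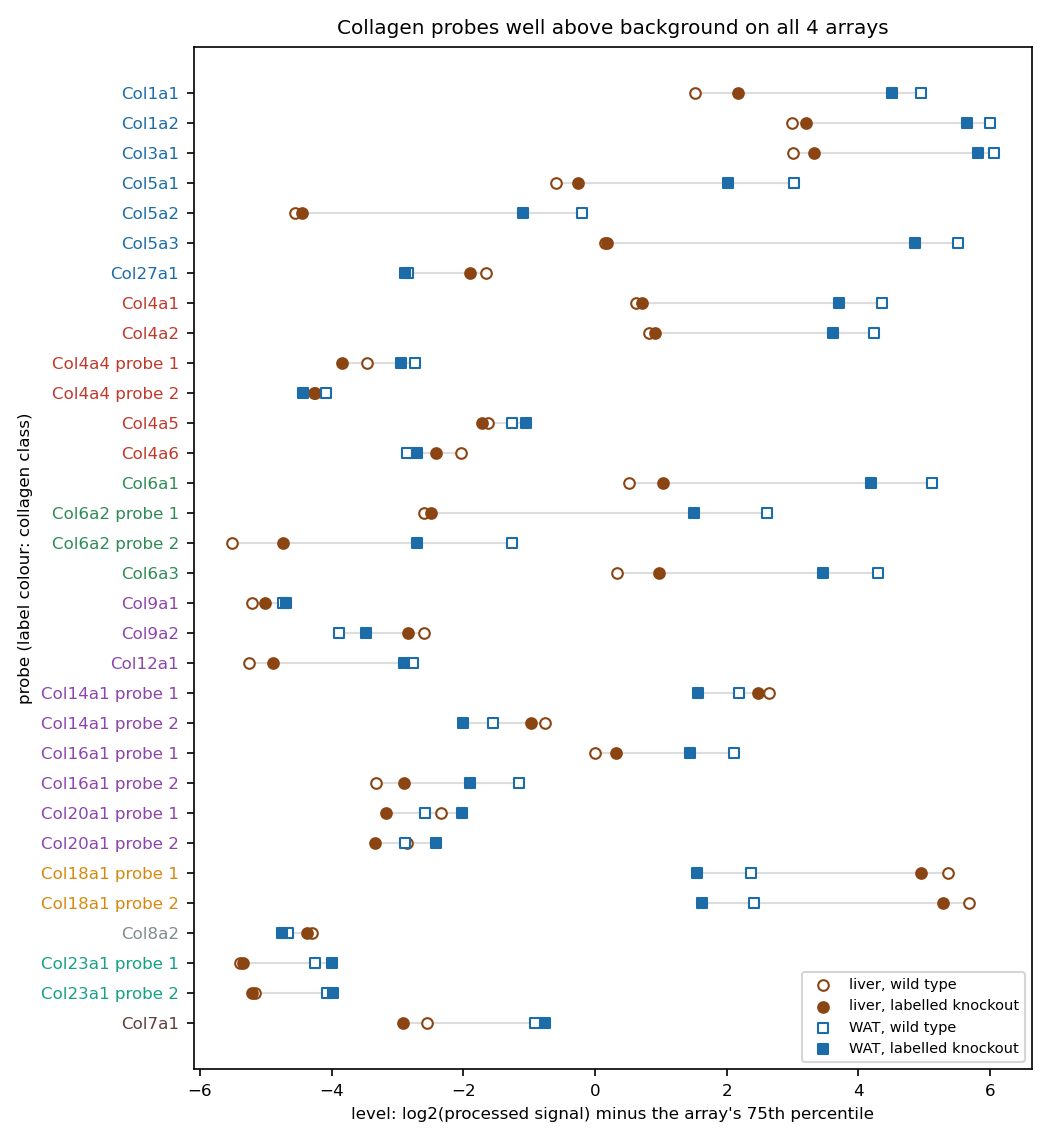
Level of the 32 collagen probes well above background on all 4 arrays (log2 of the processed signal over the array's 75th percentile), 1 array per group; circles are liver, squares WAT, open symbols wild type and filled symbols the labelled knockout. The fibrillar and type VI probes lie higher in WAT than in liver, apart from Col27a1, while both Col18a1 probes lie higher in liver.

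The fibrillar genes differed in opposite directions in the 2 tissues. In liver, 6 of the 7 measured stood higher in the labelled knockout, with a median log2 ratio of 0.21, and in WAT 7 of 8 stood lower, with a median of -0.40. The same medians over all measured genes were -0.03 in liver and 0.02 in WAT. Under the other ways of processing tried, the fibrillar median stayed between 0.10 and 0.29 in liver and between -0.58 and -0.24 in WAT. Col1a1 encodes the more abundant chain of type I collagen. Its level was 1.52 in wild-type and 2.17 in labelled-knockout liver, a ratio of 0.65 or 157% of wild type, and 4.96 and 4.51 in WAT, a ratio of -0.45 or 73.4%. Col1a2, the other chain of type I, read 2.99 and 3.20 in liver and 6.00 and 5.64 in WAT, which gives 0.21 and -0.36. Both chains were thus higher in liver and lower in WAT, although the Col1a2 differences were smaller. The Col1a2 liver ratio was close to the SD between probes (0.20). Col3a1, the chain of type III collagen of soft and elastic organs, stood at 3.0 and 3.33 in liver (0.33) and at 6.06 and 5.81 in WAT (-0.24), the latter close to the SD between probes.

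Type V collagen nucleates type I fibres and sets their width. Col5a1 stood at -0.59 in wild-type and -0.26 in labelled-knockout liver, a ratio of 0.33, and at 3.02 and 2.02 in WAT, a ratio of -1.0 or 49.8% of wild type. Col5a2 was dim in liver, at -4.55 and -4.45 (0.10, or -0.60 after normexp with an offset of 50), and read -0.19 and -1.10 in WAT (-0.91). Col5a3, the chain best known from fat and muscle, read 0.15 and 0.18 in liver (0.02), and its WAT levels were 5.52 and 4.87 (-0.65). The 3 type V chains were therefore lower in labelled-knockout WAT by 0.65 to 1.0, more than the SD between probes, while in liver only Col5a1 differed by more than that SD. Col27a1, a fibrillar chain of cartilage and developing tissues, had ratios of -0.24 in liver and -0.04 in WAT. Col11a2, also known from cartilage, was dim: it was well above background on 3 arrays and had a WAT ratio of 0.65, from -5.18 to -4.53, against a model error of 0.32 for this probe.

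Type VI collagen is built from one chain each of Col6a1, Col6a2 and either Col6a3 or one of its later relatives. Col6a1 stood at 0.51 in wild-type and 1.04 in labelled-knockout liver (0.53) and at 5.12 and 4.19 in WAT (-0.94, 52.2% of wild type). Col6a3, whose C-terminal part is released as endotrophin, read 0.34 and 0.97 in liver (0.63) and 4.29 and 3.46 in WAT (-0.83, 56.3%). Both genes were higher in liver and lower in WAT. Col6a2 has 2 probes. One read -2.60 and -2.49 in liver and 2.60 and 1.51 in WAT, and the other read -5.51 and -4.74 in liver and -1.25 and -2.70 in WAT. Their mean ratios were 0.45 in liver and -1.27 in WAT, or 41.4% of wild type. The WAT difference was seen by both probes (-1.10 and -1.45), but the liver value rests on the second probe (0.78 against 0.11 for the first), and it turned to -0.35 when the background was corrected with the normexp method and an offset of 50. The type VI median was 0.53 in liver over 3 genes and -0.83 in WAT over 5.

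The later relatives of Col6a3 did not follow these 3 chains. In WAT, Col6a5 read -3.19 in wild type and -2.30 in the labelled knockout (0.89), by 1 of its 2 probes. The other was well above background on no array. Col6a6 averaged a ratio of 0.32 over 2 dim probes, against a model error of 0.27. Neither gene was measured on both liver arrays. Col6a5 and Col6a6 lie side by side with Col6a4 on chromosome 9, and Col6a4 was not well above background anywhere. With every probe kept whether or not above background, the type VI median in WAT was -0.49.

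In basement membranes the Col4a1 and Col4a2 chains make the ubiquitous type IV network, while Col4a3 to Col4a6 replace them in particular membranes such as that of the kidney glomerulus. Col4a1 read 0.62 and 0.71 in liver (0.09) and 4.35 and 3.71 in WAT (-0.65, 63.9% of wild type). Col4a2 read 0.82 and 0.92 in liver (0.10), beside WAT levels of 4.24 and 3.62 (-0.62, 64.9%). The pair, transcribed head to head from a shared promoter, thus differed by nearly the same amount in each tissue. In the RefSeq annotation of GRCm38.p6 their transcribed stretches share 22 bases at the start. Col4a5 read -1.62 and -1.71 in liver (-0.09) and -1.27 and -1.04 in WAT (0.22). Its own head-to-head partner Col4a6, whose start is 1343 bases away, had ratios of -0.39 in liver from 1 probe and 0.27 in WAT from 2. Neither of these was lower in labelled-knockout WAT, in contrast to Col4a1 and Col4a2.

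Col4a3 and Col4a4, also head to head, were dim. The Col4a3 probe was at -4.32 in wild-type liver and not well above background in labelled-knockout liver, which puts it at least 3.28-fold higher in wild type. Here the bound is the bright value against the dim array's own value or the dimmest probe well above background there, whichever is higher. In WAT it read -4.62 and -4.77 (-0.15). The 2 measured Col4a4 probes gave -0.37 and 0.01 in liver, with opposite signs, and -0.22 and -0.35 in WAT. The type IV median was -0.09 in liver over 5 genes and -0.22 in WAT over 6.

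Multiplexins carry the endostatin-like fragment at their end. Col18a1, the source of endostatin, is made by hepatocytes as well as by vessels. Its 2 probes read 5.37 and 5.67 in wild-type liver and 4.95 and 5.29 in labelled-knockout liver, and 2.37 and 2.41 in wild-type WAT against 1.55 and 1.62. The mean ratios were -0.40 in liver (75.6% of wild type) and -0.80 in WAT (57.4%), so this gene was lower in the labelled knockout in both tissues. Col15a1 was well above background in WAT on 3 probes, which read -1.07, -1.72 and -0.72 in wild type and -2.14, -2.67 and -1.99 in the labelled knockout. Their ratios were -1.08, -0.95 and -1.27, a mean of -1.10 or 46.7% of wild type. The 3 ratios lay within 0.32 of each other, and 2 of these probes overlap in sequence. In liver a single Col15a1 probe was well above background, in wild type only, at -5.73.

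Among the fibril-associated collagens the directions were mixed, with medians of 0.01 in liver over 6 genes and 0.05 in WAT over 7. Col14a1 binds fibres in skin and tendon. Its probes read 2.64 and -0.76 in wild-type liver, 2.47 and -0.97 in labelled-knockout liver, 2.18 and -1.55 in wild-type WAT and 1.57 and -2.0 in labelled-knockout WAT. The gene's ratios were -0.18 and -0.53. Col16a1 was, like Col1a1 and Col6a1, higher in liver and lower in WAT, at 0.38 in liver and -0.70 in WAT, with both measured probes on the same side in each tissue (0.33 and 0.43, then -0.66 and -0.74). Its liver ratio was 0.09 with normexp. Col12a1, found on fibres of dense connective tissue, had 0.36 in liver from a dim probe with a model error of 0.31, and -0.14 in WAT.

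Col20a1 and Col9a2 went the other way. Col20a1 has 2 probes that read -2.34 and -2.85 in wild-type liver and -3.17 and -3.35 in labelled-knockout liver, then -2.58 and -2.88 in wild-type WAT and -2.03 and -2.41 in labelled-knockout WAT. Its ratios were -0.66 in liver (63.2% of wild type) and 0.51 in WAT (143%). Col9a2, a chain of the cartilage collagen IX, read -2.60 and -2.84 in liver (-0.24), with WAT levels of -3.89 and -3.48 (0.41). The other chains measured, Col9a1 (0.20 and 0.05) and Col22a1 (0.13 in WAT), differed by no more than the model error of their dim probes.

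The remaining members were few or dim. Col7a1, which forms the anchoring fibrils of skin, had ratios of -0.36 in liver and 0.16 in WAT. Col8a1, a short-chain collagen of vessel walls, read -3.60 and -4.51 in WAT (-0.91) and was not well above background in liver. Col8a2, its partner chain, gave -0.07 in liver and -0.39 in WAT, where its probes read -0.67 and -0.10. The transmembrane collagen Col13a1 was measured in liver alone, at -4.24 and -4.32. Col23a1 gave 0.01 and 0.18, and Col28a1, in WAT only, -0.05. The transmembrane collagens Col17a1 and Col25a1 were well above background in wild-type WAT alone, with 1 probe each, too close to the detection limit for a fold.

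Read as counts, the collagens did not stand apart in liver. None of the 26 measured genes was 2-fold higher in labelled-knockout liver, where 1.76% of 14466 genes were, and none was 2-fold lower, where 0.871% were. At 1.5-fold, 2 were higher (Col1a1 and Col6a3, against 4.5% of all genes) and 1 was lower (Col20a1, against 3.66%). The median over the 26 was 0.06, and -0.33 after normexp with an offset of 50, under which 98 of all genes were 2-fold higher and 211 lower in place of 255 and 126. In WAT, 3 of 33 were 2-fold lower (Col5a1, Col6a2 and Col15a1), where 2.11% of 14964 genes were, and none was 2-fold higher, where 2.18% were. At 1.5-fold, 12 collagens were lower in WAT against 7.73% of all genes, and 2 were higher (Col6a5 and Col11a2) against 5.99%. Col5a1 lies at the edge of the 2-fold threshold, and with scaling by the median its ratio was -0.98. Fewer collagen-making cells and less collagen RNA per cell cannot be told apart in RNA from whole tissue.

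**Figure D2:**
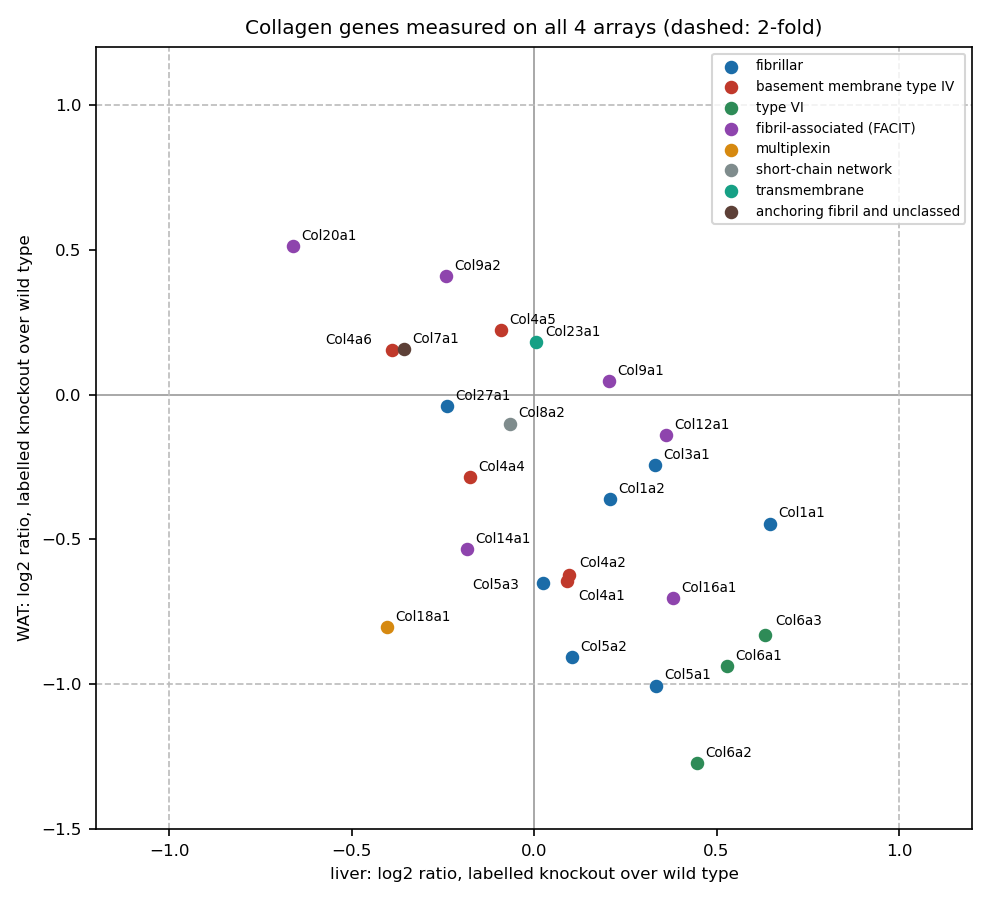
Log2 ratio of labelled knockout over wild type in WAT (vertical) against liver (horizontal), 1 point per collagen gene and colour by class, from 1 array per group. Of the 25 genes measured by the same probes on all 4 arrays, 13 lie in the lower right part, with a higher value in liver and a lower one in WAT, led by Col6a2, Col6a1, Col6a3 and Col5a1.

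Over the 25 genes measured by the same probes on all 4 arrays, the WAT ratio minus the liver ratio had a median of -0.50, against 0.04 over 13874 genes. It was negative in 18 (72% against 45.7% of all genes). A higher value in liver together with a lower one in WAT was seen in 13 (52% against 24.7%). Among these, Col5a3, Col4a1, Col4a2 and Col5a2 had liver ratios of 0.02 to 0.10, within the SD between probes. The liver signs depend on the processing. Of 26 collagens 15 were above 0 in liver, but 10 after normexp with an offset of 50, 12 with 50 added to the processed signal and 13 with median scaling. For 7 of the 25 the WAT ratio minus the liver ratio was 2-fold or more on the negative side, where 4.81% of all genes were. Those were Col6a2 (-1.72), Col6a1 (-1.47), Col6a3 (-1.46), Col5a1 (-1.34), Col1a1 (-1.09), Col16a1 (-1.08) and Col5a2 (-1.01). One gene, Col20a1 (1.17), lay as far on the positive side, where 3.5% of all genes were. The difference itself could not be tested with 1 array per group.

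**Figure D3:**
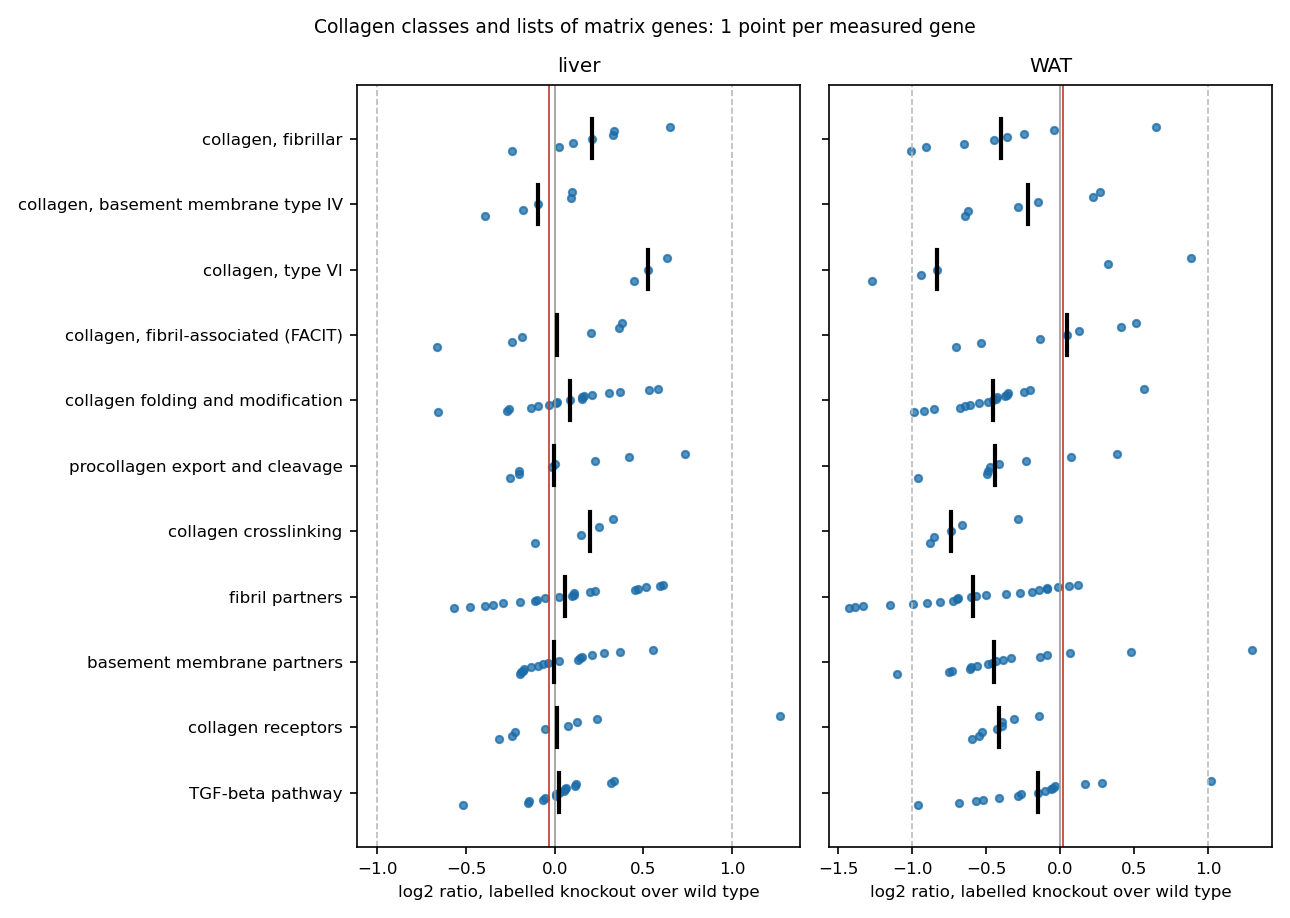
Log2 ratio of labelled knockout over wild type for 4 collagen classes and for 7 lists of genes that act on or with collagens, in liver (left) and WAT (right), 1 point per measured gene, with the list's median as a black bar, the median of all genes as a red line and 2-fold as dashed lines. The medians of the 7 lists run from -0.74 to -0.15 in WAT and from -0.01 to 0.20 in liver.

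Genes that make, export and assemble collagen were described from lists by role. Within the endoplasmic reticulum, proline and lysine hydroxylases and the chaperone Serpinh1 prepare the helix. In WAT 16 of the 17 folding genes stood lower in the labelled knockout, with a median of -0.45 and none past 2-fold. The proline hydroxylase subunit P4ha2 was at -0.99, Serpinh1 at -0.92, the prolyl 3-hydroxylase P3h2 at -0.85 and P4ha1 at -0.68, whereas P4ha3 was at 0.57. The 8 measured export and cleavage genes had a median of -0.44, and Adamts2, which removes the N-terminal propeptide, was at -0.96. All 5 crosslinking enzymes of the lysyl oxidase family were lower, with Loxl2 at -0.88, Lox at -0.85, Loxl4 at -0.74 and Loxl1 at -0.66. In liver the same 3 lists had medians of 0.09, -0.01 and 0.20, and no member passed 2-fold. Adamts14 (0.73), the lysyl hydroxylase Plod2 (0.58) and P4ha2 (0.53) were the furthest above 0 there, and Colgalt2, which adds galactose to collagen, was the furthest below at -0.66. The 2 Adamts14 probes gave 0.14 and 1.33 in liver, and Plod2 was dim there, at -4.72 and -4.14.

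Proteins that bind fibres were lower in labelled-knockout WAT in 20 of 22 measured, with a median of -0.59. Of these, 4 were at least 2-fold lower, where 2.11% of all genes were: the microfibril protein Mfap4 at -1.42, elastin (Eln) at -1.39, fibrillin 1 (Fbn1) at -1.33 and asporin (Aspn) at -1.15. Decorin (Dcn), at -0.01, hardly differed. Of the 16 basement membrane genes 13 were lower, with a median of -0.45. Nidogen 2 (Nid2) was at -1.10, while the laminin chain Lama1 was higher at 1.29. All 8 measured collagen receptors were lower, by 0.15 to 0.59, with a median of -0.41. In liver these 3 lists had medians of 0.06, -0.01 and 0.01, and the receptor kinase Ddr1, at 1.27, was the sole member past 2-fold.

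TGF-beta is the best known inducer of collagen genes. Of 15 genes of that pathway 12 were lower in labelled-knockout WAT, with a median of -0.15. Ctgf, a matrix protein, was at -0.96, the latent TGF-beta binding protein Ltbp4 at -0.68 and the ligand Tgfb3 at -0.57, while Ltbp2, a relative of Ltbp4, was at 1.02. In liver 10 of 15 were higher, with a median of 0.02 and none past 2-fold. The ligand Tgfb1 was at 0.32 there, and Ctgf at -0.06.

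**Figure D4:**
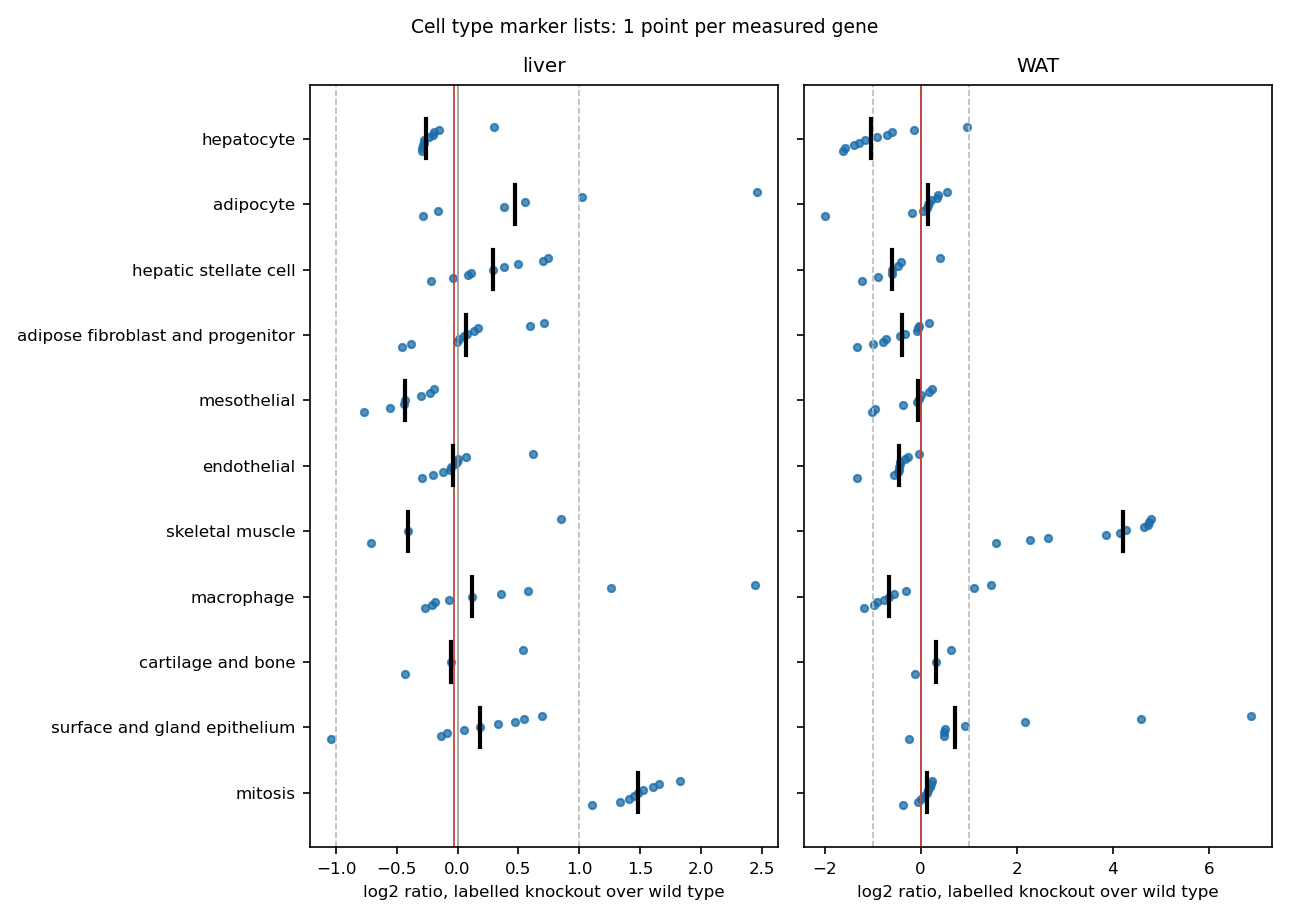
Log2 ratio of labelled knockout over wild type for marker genes of cell types that the tissues could hold, in liver (left) and WAT (right), 1 point per measured gene, with the list's median as a black bar, the median of all genes as a red line and 2-fold as dashed lines. Skeletal muscle markers stand at a median of 4.21 in WAT and mitosis markers at 1.48 in liver, beside smaller shifts of the other lists.

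Lists of cell type markers also differed between the genotypes, some in the direction of most collagens and some in the other. In WAT, 9 of 10 fibroblast and progenitor markers were lower, with a median of -0.39 (Thy1 -1.33, Dpt -0.99), and their summed level over the 75th percentile went from 137 to 119. Of 7 measured hepatic stellate cell markers, 6 were lower, with a median of -0.60 and summed levels of 36.5 and 24.9. All 10 endothelial markers were lower, with a median of -0.45 and summed levels of 55.3 and 44.6. Of 9 measured macrophage markers 7 were lower, with a median of -0.66 and summed levels of 8.17 and 5.75, while Cd14 (1.46) and Gpnmb (1.11) were 2-fold higher. Hepatocyte markers, which were all well above background on both WAT arrays, were lower in 9 of 10, with a median of -1.04 (Ttr -1.62, Alb -1.58). Cyp2e1 was their exception at 0.97, and their summed level went from 76.5 to 123. That sum follows mostly Cyp2e1, at 5.89 and 6.86, since the next highest, Alb, stood at 3.33 and 1.75. Adipocyte markers did not share this direction: 8 of 10 were higher, with a median of 0.16 and summed levels of 850 and 933, although leptin (Lep) was at -1.99. All 10 skeletal muscle markers were higher in labelled-knockout WAT, with a median of 4.21 and summed levels of 3.38 and 49.9. Epithelial markers had a median of 0.72, led by Wfdc2 at 6.87 and Cldn3 at 4.58. Their part in the WAT collagen values was not tested.

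In liver, 7 of 9 measured stellate cell markers were higher in the labelled knockout, with a median of 0.29 (Cygb 0.74, Rgs5 0.70) and summed levels of 5.42 and 7.61. Acta2, a marker of activated stellate cells, was at -0.04, and Gfap was not well above background on either array. Fibroblast and progenitor markers were higher in 7 of 10, with a median of 0.07, while their summed level went from 9.90 to 8.90. Endothelial markers were lower in 8 of 10, with a median of -0.04. All 9 measured mitosis markers were 2-fold or more higher, with a median of 1.48. The macrophage genes Trem2 and Itgax were at 2.45 and 1.26 within a list whose median was 0.11. All 7 measured mesothelial markers were lower, with a median of -0.44. Of 6 measured adipocyte markers 4 were higher and 2 lower, with a median of 0.47. Cidec was at 2.46 and Lpl at 1.02, while Retn was at -0.29 and Lipe at -0.16. Adipoq, Cfd and Lep were not well above background on either liver array, and Plin1 was so in wild type only. The list's summed levels were 9.21 and 15.8. Hepatocyte markers were lower in 9 of 10, with a median of -0.26 and summed levels of 1441 and 1232. Skeletal muscle markers were near the limit in liver, with 3 of 10 measured on both arrays. The part of these cells in the liver collagen values was not tested.

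WAT carried far more collagen RNA than liver. In wild type, 17 of 27 measured collagens were 2-fold or more higher in WAT, against 18.5% of all genes, and 3 were 2-fold lower (Col9a2, Col18a1 and Col27a1), against 16%. In the labelled knockout 18 of 28 were higher, against 17.9%, and 1 (Col18a1) was lower, against 14.1%. The median log2 ratio of WAT over liver was 2.14 in wild type over 27 genes and 1.64 in the labelled knockout over 28, beside 0.04 and 0.13 over all genes. Over the 25 genes measured by the same probes on all 4 arrays the medians were 2.14 and 1.98. After median scaling 2134 of all genes were 2-fold higher and 2825 lower in wild-type WAT, in place of 2632 and 2274, and the collagen median was 1.89. The wild-type collagen median was 1.19 after normexp with an offset of 50, with 16 of 27 above 0 in place of 20 and with 1776 of all genes 2-fold higher and 2266 lower. It was 1.23 with every probe kept whether or not above background. At 1.5-fold the counts were 17 higher and 5 lower in wild type, against 27.6% and 23.6% of all genes, and 19 higher and 4 lower in the labelled knockout, against 28.3% and 21%. Probes of one gene differed more here, with a pooled SD of 0.66 and 0.63.

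By class and over the same genes, the median of 7 fibrillar genes was 3.43 in wild type and 2.44 in the labelled knockout, and that of 3 type VI genes 4.61 and 3.02. Col5a3 was 41.2-fold higher in wild-type WAT than in wild-type liver and 25.8-fold in the labelled knockout. Col6a1 went from 24.5-fold to 8.86-fold, and Col1a1 from 10.8-fold to 5.06-fold. By 1 of its 3 probes, Col15a1 was 32.2-fold higher in wild-type WAT. That probe's wild-type liver level, -5.73, was close to the lowest level well above background there, -5.85. In the labelled knockout the fold was at least 16.5, since that probe was not well above background in liver. Smaller ratios in the labelled knockout go with the higher liver and lower WAT values given above and are made from the same 4 arrays.

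**Figure D5:**
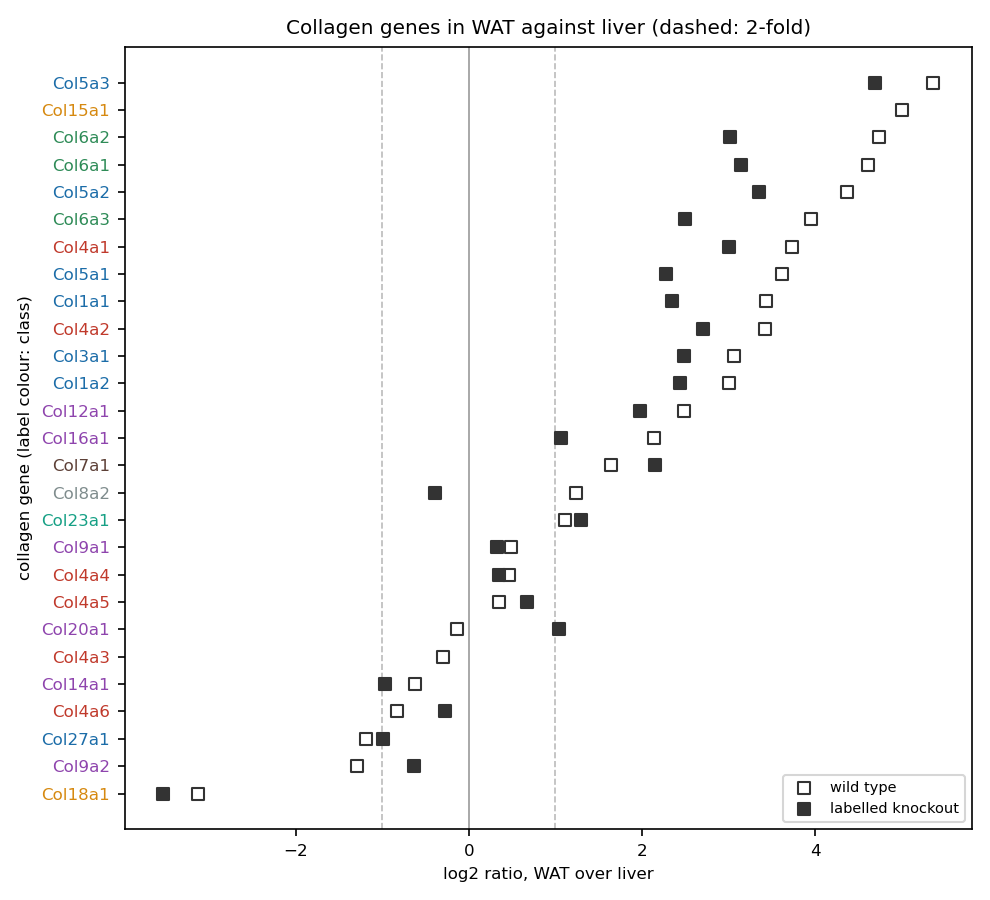
Log2 ratio of WAT over liver for each of the 27 collagen genes measured in wild type (open squares), with the labelled knockout (filled squares) where measured, 1 array per tissue and genotype. All fibrillar and type VI genes shown other than Col27a1 lie above 2 and nearer to 0 in the labelled knockout, and Col18a1 lies below -3 in both.

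A few collagens were higher in liver. Col18a1 was 8.78-fold higher in liver among the wild-type arrays, and 11.6-fold among those of the labelled knockout. Col13a1 was at least 4.18-fold and at least 2.74-fold higher, since WAT showed no Col13a1 probe well above background. Col27a1 had log2 ratios of WAT over liver of -1.19 and -0.99, and Col9a2 -1.29 and -0.64. Several were seen in WAT alone: Col8a1 was at least 4.76-fold higher there in wild type, Col28a1 at least 3.76-fold and Col6a6 at least 2.65-fold. The Col8a2 ratios, 1.23 and -0.39, come from 2 probes in wild type and 1 in the labelled knockout, and those probes were 2.82 and -0.36 in wild type.

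Promoters were read from RefSeq's table for GRCm38.p6, which held 35 of the 43 genes in 38 windows. Those of 3 genes are shown, which were higher in labelled-knockout liver and lower in labelled-knockout WAT, as the 150 bases before the start of the gene, with the searched motif in capitals.
Col1a2 chr6:4505468-4505617, plus strand: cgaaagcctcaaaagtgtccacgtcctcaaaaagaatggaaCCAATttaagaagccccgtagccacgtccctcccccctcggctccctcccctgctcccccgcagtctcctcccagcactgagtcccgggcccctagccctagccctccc
Col3a1 chr1:45311388-45311537, plus strand: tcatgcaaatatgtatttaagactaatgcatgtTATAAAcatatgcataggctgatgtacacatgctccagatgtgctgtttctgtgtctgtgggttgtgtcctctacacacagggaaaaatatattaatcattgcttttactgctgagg
Col6a1 chr10:76726045-76726194, minus strand: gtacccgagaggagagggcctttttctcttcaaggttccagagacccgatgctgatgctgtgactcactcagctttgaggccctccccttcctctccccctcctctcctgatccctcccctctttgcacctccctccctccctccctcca
The motifs searched, on both strands, were CCAAT (the CCAAT box), TATAAA (known from core promoters) and GGGCGG (known as the GC box), and none of the 3 contains another. CCAAT stood at -109 in Col1a2 and TATAAA at -117 in Col3a1, counted back from the start. None of the 3 motifs lies in the Col6a1 stretch shown. In the full 250 bases before the start, CCAAT was present in 34.2% of collagen windows and 33.8% of all 32851 promoters, and TATAAA in 13.2% and 12.4%. GGGCGG was present in 57.9% of collagen windows and 32.7% of all promoters. A match describes letters and no binding was measured.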

How the data were processed

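The 4 one-colour (Cy3) Agilent arrays, 1 per tissue and genotype, were made from 200 ng of pooled RNA per the labels' protocols. The deposited values are intensities: per the file headers the authors scanned the arrays with Agilent Feature Extraction 11.0.1.1, whose processed signal is background-corrected. Levels were log2 of that deposited signal minus log2 of its 75th percentile on that array, controls and outlier spots left out, as the mean over a probe's spots. To count as measured in a comparison, a probe needed more than 0.5 of its spots well above background on both arrays. A gene's ratio is the mean over its measured probes. Between 65.5% and 72.6% of spots were well above background, and none was saturated. With 1 array per group no test was run, and this number of arrays limits the precision. Probes were named through RefSeq by accession (27234), symbol (3576) or synonym (565), and 8054 kept the array's name. Those 8054 probes and predicted genes (Gm, LOC, Rik) were left out of the counts and medians over all genes.

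The collagen genes, classes, partner and marker lists were chosen with earlier results of these data known, so their directions are not independent evidence. All members are accounted for, and 1 gene of the TGF-beta list is not reported here. Main chains, genes past 2-fold and up to 4 extreme members of a list are named, and a few others were named after their values were seen. Only probes in the helix and bases before a gene's start are printed, in place of the probes planned. Col26a1 carries an older name, Emid2, on the array, and lies outside the rule. The steps were tested on simulated data. Alternatives were background correction (limma 3.58.1 in R 4.3.3), offset, scaling, filters, probe summary, the deposited value table and a 1.5-fold threshold. Ratios and medians were computed in Python 3.11.15.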

Additional observations from a re-analysis of the deposited data

Results flagged for a closer look

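Of the 25 collagens measured by the same probes on all 4 arrays, 10 had ratios of opposite sign in the 2 tissues, each beyond the SD between probes. The share of all genes past that same cut was not counted, so whether 10 of 25 is many cannot be said. By sign alone, however close to 0, 52% of the collagens were higher in liver and lower in WAT, against 24.7% of all genes. The reverse held for 20%, against 32.3%. Col1a2 in liver (0.21) and Col3a1 in WAT (-0.24) passed the SD (0.20 and 0.23) only narrowly. The differences, WAT ratio minus liver ratio, were not tested, since each tissue has 1 array per genotype. Of the 10, 8 were higher in labelled-knockout liver and lower in labelled-knockout WAT: Col6a2 (-1.72), Col6a1 (-1.47), Col6a3 (-1.46), Col5a1 (-1.34), Col1a1 (-1.09), Col16a1 (-1.08), Col1a2 (-0.57) and Col3a1 (-0.57). The reverse was seen for Col20a1 (1.17) and Col9a2 (0.65). After normexp with an offset of 50, the liver ratio of Col6a2 was -0.35, that of Col16a1 was 0.09 and the WAT ratio of Col3a1 was -0.22, so opposite signs beyond the SD between probes were not seen for these 3 under that setting. The Col6a2 liver value rests on 1 dim probe (0.78, against 0.11 for the other).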

How the results depend on the processing

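No paired analysis was possible because each group is 1 array. Of 217 alternative values of medians and counts, 199 stayed within the spread or within 1.5 times the count, and 18 moved. With normexp and an offset of 50 the collagen median was -0.33 in liver and 1.19 for wild-type WAT over liver, and with an offset of 0 it was -0.34 and 1.29, while the median of all genes in liver was -0.18 and -0.19. Col6a2 in liver turned to -0.35 and -0.42 under these settings. Counts of collagens 2-fold lower were 2 of 26 in liver with normexp and an offset of 0, where 1238 of 14466 genes were. For WAT over liver in the labelled knockout they were 2 of 28 with quantile normalization and 3 of 28 with median scaling. Of all 14275 genes, 2082 and 2399 were 2-fold lower under these 2 settings. With no filter on dim probes the counts lower, out of 43 collagens, were 1 in liver, 5 for WAT over liver in wild type and 3 in the labelled knockout. Of all genes, 377 of 19896, 2742 of 19896 and 2623 of 19895 were 2-fold lower there. Under that setting the wild-type median was 1.23, and the type VI median in WAT was -0.49. At 1.5-fold, where the shares of all genes are given above, 2 were higher and 1 lower in liver and 2 higher and 12 lower in WAT. At that threshold 5 (wild type) and 4 (labelled knockout) were lower in WAT than in liver. The cause was not tested. Signal over background limits what the dim probes can show: 19 of the 68 rose above it nowhere.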
